A study of Mus musculus with 11 samples.

Results

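Microglia, the resident macrophages (macs) of the brain, were described in WT mice by setting all barcodes of the WT brain library against the WT libraries of colon, liver, lung and spleen. The brain library held 3097 of the 51712 barcodes of the series, and 3097 of the 24908 barcodes of the 5 WT tissues compared. The other libraries were colonic macs (CMs, 4989 barcodes), Kupffer cells of the liver (KCs, 4645), alveolar macs of the lung (AMs, 7703) and splenic macs (SMs, 4474). The mice behind all 5 carried Zeb2fl/fl alleles, in which loxP sites flank Zeb2, without any CRE transgene, and were littermates of the Zeb2-deleted animals, on a C57Bl/6 background and 6–8 weeks old, so the floxed alleles are shared by every group. Microglia were sorted as CD45int cells positive for F4/80 and CD64, so the genes of those proteins (Adgre1 and Fcgr1) helped to choose the cells. The macs of the other tissues were sorted on F4/80 and CD64 as well. KCs were also chosen for Clec4F, AMs for CD11c and SiglecF, and CMs and SMs for absence of Ly6C, Ly6G and SiglecF. How many mice were pooled for a library is not given in the sources used here. A further WT KC library, from CRE-negative Nr1h3fl/fl mice (3869 barcodes), served to show how far 2 libraries of the same tissue can differ.

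Microglia settle in the brain before birth and then renew themselves there, apart from circulating monocytes. They survey the tissue with motile processes, sense nucleotides released by damaged cells, receive TGF-beta and CSF1R signals, and clear debris and synapses through lysosomal degradation. Markers such as P2ry12, Tmem119, Sparc and Olfml3 are used to tell them from other macs, and the zinc finger factor Sall1 is known for holding their identity.

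Gene expression was measured as unique molecular identifiers (UMIs), each of which stands for 1 captured RNA molecule, at the 3′ end of transcripts, so a level does not scale with transcript length. The microglial library held 13030711 UMIs with a median of 4096 per barcode, within the range of the other tissues (11133411 in SMs to 47400786 in CMs, with medians of 2108.5 to 8754). A cell filter on UMIs, detected genes and mitochondrial share removed 267 microglial barcodes (8.62%) and left 2830 cells with 12334676 UMIs, a median of 4202 UMIs and 1728.5 genes per cell, and no cluster of another cell type. The barcode sequences of 14 to 33 microglia (0.452% to 1.07%) also occurred in each of the other libraries of the series. UMIs were summed over the cells of a library and scaled to counts per 1000000 UMIs of the library (CPM). Each tissue had 1 WT library, so no comparison has a replicate check, no test was made, and the 95% intervals given (exact Poisson for levels and ratios, exact binomial for shares of cells) cover counting error only. Tissue, sort, digestion of the tissue and library cannot be told apart, and the sequencing instrument was shared by brain, colon and spleen but not by liver and lung.

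The label of the library was checked against its markers first. All 12 microglial markers of the list used here were found in it, with a median of 11 of them in a cell. Of all 3097 barcodes, 3000 (96.9%) had a UMI of each of P2ry12, Tmem119, Sparc and Olfml3, 7 had none of these 4, and 1 had none of the 12. All 7 were among the barcodes that the filter removed, whose median was 1471 UMIs.

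Defining markers of other cell types were at or near 0 in the summed microglia. Neutrophil markers reached 0.405 CPM together, with Retnlg, Ly6g, Mmp9, Camp and Ngp at 0, and monocyte markers 8.51 CPM, with Ly6c2 and Gm9733 at 0. Neuronal markers summed to 2.51 CPM, astrocyte markers to 2.59 CPM with Aqp4, Gja1 and Slc4a4 at 0, and pericyte markers to 0 CPM. The 10 markers of border-associated macs, which live in the meninges and around vessels, summed to 13.5 CPM, and 6 of 3097 barcodes held 3 or more of them. Some higher sums came largely from single genes. Cd79b made 56.2 of 57.3 CPM of the B cell list with Ms4a1, Fcmr and Pax5 at 0. Il7r made 28.9 of 30.5 CPM of the T cell list with Cd3e, Cd3d and Cd3g at 0. Tnfrsf17, itself a gene that was raised, made 58.3 of 60.3 CPM of the plasma cell list. In the oligodendrocyte list Cnp made 63.2 of 109 CPM and other members the rest. Of all 3097 barcodes 8 held 3 or more oligodendrocyte markers, 4 held 3 or more B cell markers and 19 held 3 or more erythroid markers. The erythroid list reached 609 CPM, of which Hbb-bs, a haemoglobin chain, made 319 CPM. At 1500 UMIs per cell, 251 of 2830 microglia (8.87%) had any erythroid UMI and 5 (0.177%) had 3 or more, with up to 61.9% of the UMIs of a cell.

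The 4 genes used to mark the cells were then compared in all 5 libraries. P2ry12, a receptor for ADP that steers microglial processes to injury (chromosome 3: 59216272–59262871, minus strand, GRCm38/mm10, GENCODE M21), stood at 4405 CPM in microglia (95% interval 4368 to 4443) against 79.9 (CMs), 101 (KCs), 7.6 (AMs) and 83.6 (SMs). Tmem119, a transmembrane protein of homeostatic microglia (chromosome 5: 113793729–113800516, minus strand), stood at 2428 CPM (2401 to 2456) against 61.1 (CMs), 0.997 (KCs), 0 (AMs) and 1.98 (SMs). Where 4 values follow each other without a name, they are in this order of tissues. Microglia were the highest library for both, with KCs next for P2ry12 and CMs next for Tmem119. Sparc, a secreted matrix-binding glycoprotein (chromosome 11: 55394500–55423183, minus strand), stood at 3702 CPM (3668 to 3736) against 81.2 (CMs), 19.2 (KCs), 5.13 (AMs) and 9.41 (SMs). Olfml3, a secreted olfactomedin-like protein (chromosome 3: 103722222–103738001, minus strand), stood at 2296 CPM (2270 to 2323) against 105 (CMs), 4.15 (KCs), 0.509 (AMs) and 1.86 (SMs). Microglia were thus 43.4-fold (41.7 to 45.3), 39.8-fold (38.2 to 41.4), 45.6-fold (44.1 to 47.2) and 21.8-fold (21.2 to 22.5) above the next library for P2ry12, Tmem119, Sparc and Olfml3, and the plot of marker levels by library shows no overlap for any of the 11 markers it gives.

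**Figure D1:**
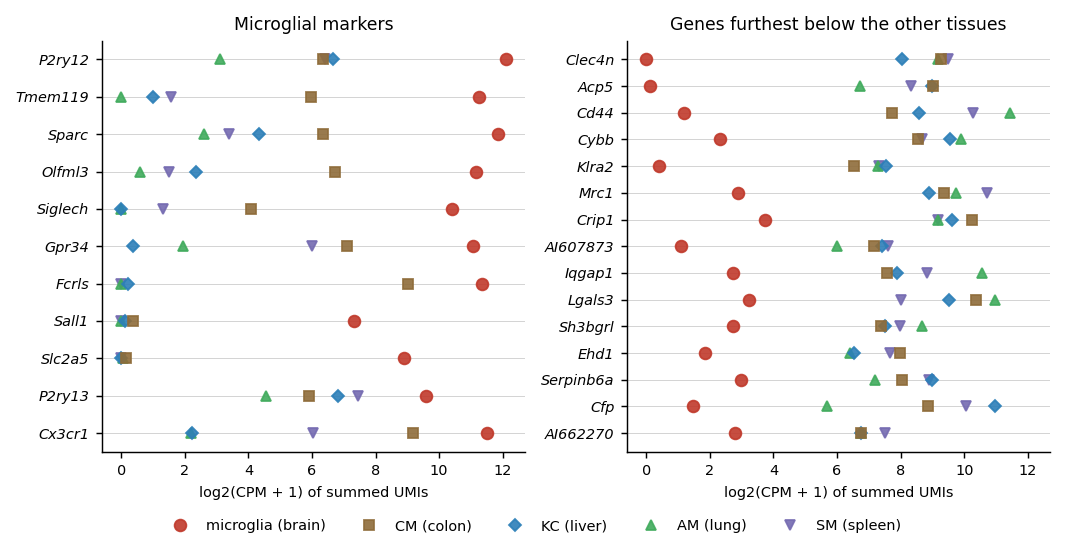
Levels of 11 microglial markers (left) and of the 15 genes furthest below the other tissues among those of at least 50 CPM in each of them (right) in the 5 WT libraries, as log2(CPM + 1) of the UMIs summed over cells. Each point is 1 library. Microglia lie to the right of every other library for all 11 markers and to the left of every other library for all 15 genes on the right.

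The same contrast was seen cell by cell. After every cell had been thinned to 1500 UMIs, P2ry12 was seen in 98.3% of microglia against 11.9% of CMs, 14.2% of KCs, 1.12% of AMs and 12.1% of SMs. Tmem119 was seen in 94.5% of microglia, 7.96% of CMs and at most 0.211% of the other macs, Sparc in 98.6%, 11.2% and at most 2.48%, and Olfml3 in 94.2%, 12% and at most 0.645%. No microglia that had passed the filter fell below 1500 UMIs, whereas 828 SMs (25.9%) and 29 AMs did and were left out. The filter was set within each library and kept cells from 1533 UMIs upwards in microglia but from 833 in SMs, so this contrast depends on it. Without thinning, the shares in microglia were 99.7%, 99.3%, 99.9% and 99.5%. In CMs, the deepest library, they were 49.4% for P2ry12, 35.8% for Tmem119, 40.9% for Sparc and 41.2% for Olfml3. P2ry12 was then seen in 41.6% of KCs and 17.7% of SMs. The brain library holds no cell type that lacks these genes, so the share that free RNA would give in the brain was not measured.

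As these marker genes were high together, the 250 bases before the start of 4 of them are shown, as RefSeq places that start on GRCm38.p6, to let their sequence be read beside their levels. Capitals mark matches, on either strand, to AGGAAGT, a core bound by PU.1 and other ETS factors, or to a MEF2 motif, read as CTA and TAG with any 4 bases between them. The stretches are chr3:59262986-59263235 (minus strand) for P2ry12, chr3:103738002-103738251 (minus strand) for Olfml3, chr4:150119094-150119343 (plus strand) for Slc2a5 and chr9:120068297-120068546 (minus strand) for Cx3cr1.
P2ry12: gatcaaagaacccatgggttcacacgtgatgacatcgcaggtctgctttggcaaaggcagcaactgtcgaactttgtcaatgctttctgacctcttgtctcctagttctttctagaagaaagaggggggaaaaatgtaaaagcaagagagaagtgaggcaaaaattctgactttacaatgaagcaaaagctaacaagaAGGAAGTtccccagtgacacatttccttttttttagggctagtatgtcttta
Olfml3: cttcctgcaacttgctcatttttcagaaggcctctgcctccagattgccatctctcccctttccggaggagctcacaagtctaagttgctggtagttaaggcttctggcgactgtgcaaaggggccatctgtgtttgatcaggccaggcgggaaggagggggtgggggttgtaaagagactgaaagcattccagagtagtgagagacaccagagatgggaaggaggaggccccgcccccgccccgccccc
Slc2a5: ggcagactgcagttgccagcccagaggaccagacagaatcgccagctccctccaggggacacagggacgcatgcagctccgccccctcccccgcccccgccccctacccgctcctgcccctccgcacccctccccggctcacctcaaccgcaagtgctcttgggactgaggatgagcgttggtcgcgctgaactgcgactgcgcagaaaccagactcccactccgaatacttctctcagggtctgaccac
Cx3cr1: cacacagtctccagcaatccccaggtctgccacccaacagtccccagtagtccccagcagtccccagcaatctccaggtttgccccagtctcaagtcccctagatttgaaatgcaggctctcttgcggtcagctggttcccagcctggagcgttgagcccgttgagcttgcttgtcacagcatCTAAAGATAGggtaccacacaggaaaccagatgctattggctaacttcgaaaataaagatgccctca
The RefSeq start lies 114 bases from the GENCODE gene start for P2ry12, 61 for Slc2a5, 1583 for Cx3cr1 and 0 for Olfml3. P2ry12 had 1 match to AGGAAGT, beginning 52 bases before the start, Cx3cr1 had 1 match to the MEF2 motif, beginning 67 bases before it, and Olfml3 and Slc2a5 had neither. RefSeq promoters were at hand for 9 of the 12 markers and for 442 of the 579 genes called raised in microglia as defined below. AGGAAGT was found in 9.56% of 586 promoters of raised genes, in 14.7% of 170 promoters of genes called lowered, in 8.26% of 7701 promoters of genes of at least 20 CPM in any of the 5 libraries, and in 7.69% of all 32851 promoters. The MEF2 motif was found in 4.78%, 0.588%, 2.43% and 3.2% of them. Of the 11 promoters of the markers 3 held AGGAAGT (27.3%) and 1 the MEF2 motif (9.09%), too few to set against these shares. These are counts of letters in a window of 250 bases and say nothing about binding.

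To ask how many genes set microglia apart, a gene was called raised when it had at least 20 CPM in microglia and a log2 ratio of CPM plus 1 of at least 1 over the highest of the other 4 tissues. It was called lowered when every other tissue had at least 20 CPM and microglia were at least 1 log2 unit below the lowest of them. By this rule 579 of 5575 genes were raised in microglia (10.4%) and 188 of 3636 lowered (5.17%). The same rule called 2.6% of genes raised and 0.664% lowered in CMs, 2.83% and 1.78% in KCs, 8.7% and 5.11% in AMs, and 7.31% and 2.32% in SMs, so with total UMIs the share of raised genes was highest in microglia, with AMs next, and the lowered shares of microglia and AMs were close. With TMM factors this order turned, with 7.66% of genes raised in microglia and 8.79% in AMs, and 7.39% lowered in microglia and 5.29% in AMs. Of the raised genes 176 had a ratio of at least 2 on the log2 scale and 47 of at least 4, and the gene just inside the threshold was Zfp768 (1.001) and the gene just outside Trp53 (0.999). The raised genes took up 25.1% of all microglial UMIs and 2.15% to 4.18% of the UMIs of the other libraries. With TMM factors in place of total UMIs, which moved the median log2 ratio of all genes to the mean of the other tissues from 0.02 to -0.15, 405 genes were raised and 278 lowered. Cells with UMIs of other cell types remained in the spleen library. At 1500 UMIs 18.8% of the SMs used had 3 or more UMIs of erythroid genes and 4.68% of B cell markers, against 0.177% and 0.106% of microglia. In the liver library 4.91% of the KCs used had 3 or more UMIs of endothelial markers, against 0% of microglia. That list holds Cdh5, which is also a KC marker, and 48.5% of KCs had at least 1 of its UMIs. How many of these UMIs come from endothelial cells therefore cannot be told from the counts. Kdr and Ptprb, on that list but not among the KC markers, were among the leading genes of the 181 KCs described next. Leaving out a further 200 SMs led by B cell genes and 65 KCs gave 577 raised and 187 lowered genes, while a cluster of 181 KCs with endothelial genes, and Sparc, among its leading genes stayed in, and its part was not tested. Without the colon library 343 genes were lowered in place of 188, and against colon and spleen alone, which shared the instrument with the brain, 385.

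**Figure D2:**
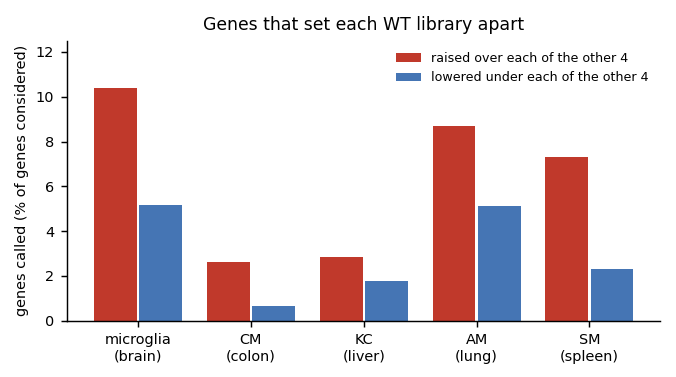
Share of genes called raised over each of the other 4 tissues (red) or lowered under each of them (blue) in every WT library, as percent of the genes with at least 20 CPM in that library or in each of the other 4. With this scaling by total UMIs microglia have the highest raised share (10.4%), followed by AMs (8.7%), an order that turns with TMM factors (7.66% and 8.79%).

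Taken 1 tissue at a time, microglia differed from CMs by a log2 ratio of at least 1 in 34.5% of genes, from KCs in 36.9%, from SMs in 46.7% and from AMs in 47.7%. Between the Zeb2fl/fl and Nr1h3fl/fl WT KC libraries the share was 1.33%. Across genes, the log2 levels of microglia went with those of CMs at r = 0.57, of KCs at 0.44, of SMs at 0.40 and of AMs at 0.31, over 6204 to 6964 genes, which are not independent replicates. Among the 579 raised genes CMs were the highest other library for 244, SMs for 141, KCs for 109 and AMs for 85. The same count over all genes was not made, so these numbers describe the raised genes only.

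The genes with the largest ratios were nearly silent outside the brain. Slc2a5, which encodes the fructose transporter GLUT5, stood at 479 CPM in microglia (467 to 492) and was represented by 5 UMIs in CMs, 1 in AMs and none in KCs and SMs. Sall1 stood at 160 CPM (153 to 167) against 0.279 in CMs, 0.0831 in KCs and 0 in AMs and SMs. Its relative Sall3 had 77.8 CPM in microglia and no UMI elsewhere, which makes it at least 210-fold higher against the limit of 3 counts in SMs, the shallowest library. Nav3, a microtubule-associated neuron navigator, had 145 CPM and no UMI elsewhere, or at least 391-fold more against the same limit. Serpine2, an inhibitor of serine proteases, stood at 604 CPM against 2.39 in CMs, 0 in KCs and AMs and 0.124 in SMs. Crybb1, a beta-crystallin, stood at 544 CPM against at most 1.39 elsewhere, and Adamts1, a secreted metalloprotease, at 307 CPM against at most 0.54. Siglech, a sialic acid-binding lectin that plasmacytoid dendritic cells also carry, stood at 1347 CPM against 16.1 in CMs, 0 in KCs and AMs and 1.49 in SMs. When genes had to reach 50 CPM and be seen in 20% of microglia, others among the 25 with the largest ratios were Adgrg1 (an adhesion receptor, 275 CPM), Cd34 (a sialomucin of progenitors and endothelium, 191 CPM), Fscn1 (an actin-bundling protein, 452 CPM), Ecscr (439 CPM), Rtn4rl1 (a Nogo receptor relative, 117 CPM), Lrrc3, Klhdc8b, Upk1b, Gp9, Kcnk12, Csmd3, Whrn and Jam2, each at or below 9.85 CPM in every other tissue, besides markers given above.

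Of the raised genes, those of highest level encoded mainly lysosomal and secreted proteins. Cst3, the cysteine protease inhibitor cystatin C, made up 66835 CPM of the microglial UMIs (66690 to 66979), against 2927 (CMs), 3401 (KCs), 680 (AMs) and 942 (SMs). Ctsd, an aspartic protease of lysosomes, stood at 11185 CPM against 758, 1616, 2545 and 1429, and Lgmn, an asparaginyl endopeptidase, at 5657 CPM against 1829, 2344, 175 and 1410. All 3 were highest in microglia, but by a narrower margin for Lgmn (2.41-fold, 2.39 to 2.44), whose call was lost with TMM factors. Of 25 cathepsins and lysosomal proteins, 24 of which reached 20 CPM, 6 were raised, among them Ctsd, Ctsf, Ctsl, Lgmn and Cst3, beside 10.4% of all genes, and none was lowered. Microglia were the highest library in 15 of the 25, and in 2312 of all 7688 genes considered. The median log2 ratio to the mean of the other tissues was 1.07 over the list and 0.02 over all genes considered. Microglia were the lowest library in 4 of the 25, and in 1691 of all 7688 genes considered. Ctsc (574 CPM against 736 to 2304) was among these 4, none of which passed the threshold. With TMM factors 4 of the 6 were called. Of the remaining raised genes of high level, Selplg, the P-selectin ligand, stood at 3756 CPM against 103 to 163 elsewhere, and Cd81, a tetraspanin, at 3362 CPM against 166 to 1664, a log2 ratio of 1.01 that was not called with TMM factors.

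Some receptors for purines were raised in microglia. P2ry13, another ADP receptor, stood at 765 CPM against 59 (CMs), 112 (KCs), 22.6 (AMs) and 175 (SMs), and Adora3, an adenosine receptor, at 176 CPM against 7.97, 0.665, 2.11 and 0.248. With P2ry12 these were 3 raised of the 14 genes of the purine list, of which 7 reached 20 CPM in microglia, beside 10.4% of all genes that reached it. None was lowered, and the median log2 ratio of the 8 members considered was 2.43. P2ry6, the UDP receptor linked to phagocytosis, had 371 CPM in microglia and 322 in CMs, and P2rx4, an ATP-gated channel, 104 CPM in microglia against 56.5 to 193 elsewhere, so neither stood apart. Entpd1, the ectonucleotidase CD39, had 246 CPM against 174 in SMs. P2ry12 and P2ry13 are microglial markers as well, and members were picked with earlier results in hand. The raised share of this list is therefore a description only.

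Of 24 genes of neural contact and transport, 23 reached 20 CPM and 10 of these were raised, beside 10.4% of all genes. App was lowered (87.2 CPM against 190 to 568), beside 5.17% of all genes. Over the members considered, the log2 ratio had a median of 2.71. Members were picked with earlier results of these data in hand. The raised ones include the microglial markers Cx3cr1, Gpr34 and Slc2a5, and Adgrg1, Nav3 and Jam2, named above for their large ratios. The raised share and the median therefore describe the genes picked, and whether neural contact genes as a class stand apart was not tested. Cx3cr1, the receptor for the neuronal chemokine fractalkine, stood at 2923 CPM against 581 (CMs), 3.7 (KCs), 3.56 (AMs) and 63.9 (SMs). Gpr34, a lysophosphatidylserine receptor, stood at 2156 CPM against 137, 0.291, 2.84 and 62.3. CMs were the next library for both. Glul, glutamine synthetase, stood at 2505 CPM against 212 to 729, Slco2b1, an organic anion transporter, at 520 CPM against 0.0415 to 92.6, and Bin1, a membrane-curving protein, at 961 CPM against 21.9 to 151. Slc1a3, a glutamate transporter, was higher in SMs (282 CPM) than in microglia (131 CPM).

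Growth factor and TGF-beta signalling genes were examined next. Tgfbr1, the type I TGF-beta receptor, stood at 635 CPM in microglia against 125 (CMs), 56.9 (KCs), 136 (AMs) and 78.7 (SMs). Smad7, an inhibitor of the pathway, stood at 294 CPM against 43, 47.2, 6.58 and 12.3, and Smad3, one of its transducers, at 27.2 CPM against at most 10.5. These 3 were the raised genes of the 16 in the list, 12 of which reached 20 CPM, beside 10.4% of all genes, and none was lowered. Tgfbr2, the partner receptor, had 133 CPM in microglia and 83.9 to 246 elsewhere. Trem2, a lipid-sensing receptor that signals through Tyrobp, stood at 2870 CPM against 222 (CMs), 42.8 (KCs), 36.5 (AMs) and 0.124 (SMs). Csf3r (196 CPM against at most 30.2) and Csf1 (25.9 CPM against at most 3.22) were raised as well, whereas Csf1r itself stood at 3202 CPM against 69.2 to 1774 and Tyrobp at 3213 CPM against 1462 to 5113, short of the threshold.

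Among 25 mac transcription factors, Sall1, Sall3, Mef2c, Zeb1 and Cebpa were raised and Nr1h3, Cebpb and Tfec lowered. These were 5 of 17 that reached 20 CPM in microglia and 3 of 10 that reached it in every other tissue, beside 10.4% and 5.17% of all genes. Without the lung library 6 were raised and 5 lowered, and with a floor of 5 CPM 5 and 5. Mef2c stood at 776 CPM in microglia against 177 (CMs), 4.49 (KCs), 6.32 (AMs) and 54.2 (SMs), and Cebpa at 666 CPM against 23.2 to 172. Nr1h3, the sterol-sensing receptor LXR-alpha, was represented by 4 microglial UMIs (0.324 CPM) against 26.7 CPM (CMs), 394 (KCs), 40.7 (AMs) and 373 (SMs). Cebpb stood at 28.5 CPM against 74.1 to 1285, and Tfec at 0.973 CPM against 25.5 to 113. The general mac factors Spi1 (614 CPM against 193 to 661), Irf8 (768 CPM against 146 to 551) and Zeb2 (475 CPM against 312 to 740) did not pass the threshold. Zeb1, at 25.9 CPM against at most 9.45, was no longer raised when all cells past the filter or all barcodes were used.

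**Figure D3:**
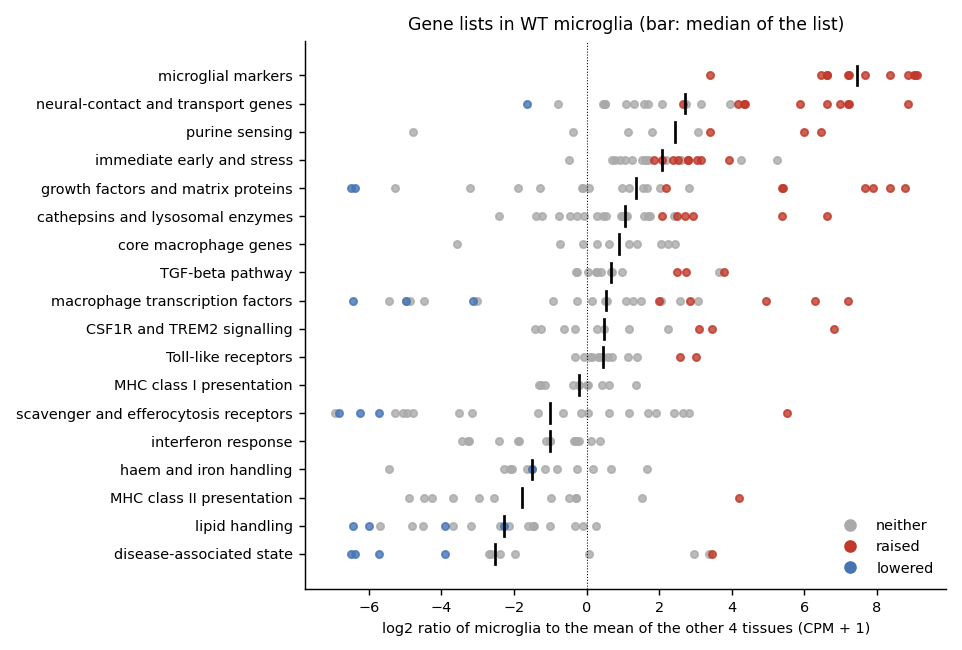
Log2 ratio of CPM + 1 in microglia to the mean (of log2 values) of the other 4 tissues for the members of 18 gene lists with at least 20 CPM in any of the 5 libraries. Each point is 1 gene, red where raised, blue where lowered, grey where neither, with a black bar at the median of the list and a dotted line at the median of all genes (0.02). The microglial markers lie furthest to the right (median 7.45), and of the lists plotted the disease-associated (-2.51) and lipid (-2.28) ones furthest to the left.

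The genes furthest below the other 4 tissues were then named. Clec4n, the fungal pattern receptor dectin-2, had no UMI in microglia against 613 CPM (CMs), 260 (KCs), 571 (AMs) and 723 (SMs), which puts microglia at least 1069-fold lower than KCs by the limit of 3 counts (0.243 CPM). Acp5, the tartrate-resistant acid phosphatase, had 1 UMI against 514, 507, 104 and 320 CPM. Cd44, the hyaluronan receptor, stood at 1.3 CPM (0.741 to 2.11) against 213, 381, 2761 and 1241. No microglial value of these 3 came near the lowest other tissue. Cybb, the catalytic subunit of the phagocyte NADPH oxidase, stood at 3.97 CPM against 370 to 950, Mrc1, the mannose receptor CD206, at 6.32 CPM against 473 to 1690, and Lgals3, galectin-3, at 8.43 CPM against 256 to 1987. Cfp, the complement factor properdin, stood at 1.78 CPM against 50.1 to 2002, Klra2, a lectin receptor of the Ly49 family, at 0.324 CPM against 90.8 to 185, Crip1 at 12.2 CPM against 577 to 1215 and Iqgap1, a cytoskeletal scaffold, at 5.59 CPM against 190 to 1519. AI607873, Sh3bgrl, Ehd1, Serpinb6a and AI662270 completed the 15 genes with the most negative ratios among those of at least 50 CPM in each other tissue, with between 1.14 and 6.89 CPM in microglia and at least 62.7 CPM elsewhere.

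None of 19 genes of lipid handling was raised. Of the 9 that every other tissue had at 20 CPM or more, 4 were lowered (Nr1h3, Fabp5, Plin2 and Pltp), beside 5.17% of all genes. The count was 1 with a floor of 50 CPM, 6 with TMM factors and 9 without the colon library. Of all 19, 10 were lowest in microglia, beside 1691 of all 7688 genes considered, and the median log2 ratio was -2.28. Pltp, the phospholipid transfer protein, stood at 1.54 CPM against 491 (CMs), 708 (KCs), 52.6 (AMs) and 36.4 (SMs). Plin2, the lipid droplet coat protein, stood at 53.1 CPM against 269, 141, 905 and 135, and the fatty acid-binding protein gene Fabp5 at 8.19 CPM against 34.8 to 731, a call that was lost when further clusters of other cell types were left out. Apoe, the main apolipoprotein of macs, did not follow: it stood at 2192 CPM in microglia, near the 2138 CPM of SMs, between 35882 CPM in CMs and 13.9 CPM in AMs.

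Scavenger receptors were mixed, with Axl (8.03 CPM against 128 to 1342), Cd36 (0.405 CPM against 31.2 to 273) and Mrc1 lowered and the integrin Itgb3 (75.9 CPM against at most 1.98) raised among 24, 12 of which reached 20 CPM in microglia and 10 in every other tissue, beside 10.4% of all genes raised and 5.17% lowered. Without the lung library 2 were raised and 6 lowered, and without the colon library 4 were raised and 4 lowered. Mertk, the efferocytosis receptor related to Axl, stood at 246 CPM, inside the range of 20.8 to 651 of the other tissues. Of 13 genes linked to disease-associated microglia, 1 of 5 that reached 20 CPM in microglia was raised (Csf1) and 4 of 7 that reached it in every other tissue were lowered (Axl, Igf1, Lgals3 and Fabp5), beside 10.4% and 5.17% of all genes. Igf1, a growth factor, stood at 1.78 CPM against 28.3 to 692. In the interferon list none of 16 genes, 7 of which reached 20 CPM in microglia and 3 in every other tissue, was raised or lowered, with a median log2 ratio of -1.02, but 4 were lowered without the lung library, where these genes summed to the lowest level (219 CPM against 412 in microglia and 1861 to 8687 elsewhere). In the class II antigen presentation list of 12 genes, 1 of 8 that reached 20 CPM in microglia, H2-Oa, was raised (83.2 CPM against at most 9.04), near the 10.4% of all genes. None of the 5 that reached it in every other tissue was lowered, beside 5.17% of all genes, or 4 without the lung library. Cd74, the invariant chain, stood at 193 CPM against 24179 (CMs), 7479 (KCs), 98.6 (AMs) and 2111 (SMs). The iron store gene Fth1 was lowered (3452 CPM against 7761 to 13092), a call lost when clusters of other cell types were not left out, and Hmox1, the haem-degrading enzyme, had 765 CPM, far below SMs (11631 CPM) and above AMs (114 CPM).

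Genes in wide use among macs were examined with a list of core mac genes. None of its 10 members was raised or lowered against all 4 tissues, beside 10.4% and 5.17% of all genes. Microglia were the highest library in 4 of the 10, and in 2312 of all 7688 genes considered. These 4 were Fcgr1 (577 CPM against 24.8 to 331), Csf1r, Cd14, a receptor for lipopolysaccharide (532 CPM against 142 to 302), and Cd68, a lysosomal glycoprotein (926 CPM against 207 to 844). Of 18 complement genes none of the 8 that reached 20 CPM in microglia was raised, and 1 of the 2 that reached it in every other tissue, Cfp, was lowered, beside 10.4% and 5.17% of all genes. Without the liver library 3 were lowered, and without the lung library 2. Microglia were highest for 5 and lowest for 6 of them, and the median log2 ratio was -2.45. C2 and C3 (0.162 CPM each), Cfb (0.0811 CPM) and C6 (0 CPM) were near or at 0 in microglia. C1qa, C1qb and C1qc stood at 11203, 9957 and 8380 CPM in microglia, above CMs (7487, 6879 and 5277) and KCs (8626, 8002 and 7295) but short of the threshold, with SMs lower and AMs at 0.145 CPM or less. Lyz2, lysozyme, was an exception among core genes: it stood at 332 CPM in microglia, above SMs (105 CPM) and far below KCs (9544), AMs (11847) and CMs (20198). Fcrls, an Fc receptor-like gene used as a microglial marker, stood at 2580 CPM in microglia and 515 CPM in CMs, but at 0.166 CPM or less in the other 3 tissues.

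Smaller sets were read in the same way, beside 10.4% of all genes raised and 5.17% lowered. Of 24 growth factors and matrix proteins 17 reached 20 CPM in microglia, and 7 of these were raised, among them Sparc, Olfml3, Serpine2 and Serpinf1. Of the 7 that reached it in every other tissue, Igf1 and Lgals3 were lowered. Of 17 Toll-like receptors and partners 10 reached 20 CPM in microglia, of which Ly86 and Cd180 were raised. None of the 6 that reached it in every other tissue was lowered. The calls of Serpinf1, Ly86 and Cd180 were lost with TMM factors. Of 16 chemokine receptors 7 reached 20 CPM in microglia, of which Cx3cr1 was raised. Only Fpr1, a formyl peptide receptor, reached it in every other tissue, and it was lowered. Of 8 Fc receptors Fcrls was raised, of 7 that reached 20 CPM in microglia, and Fcgr4 lowered, of 5 in every other tissue. The Fcgr4 call was lost without clusters 1 and 2 of the microglia. Without the liver library 2 chemokine receptors were raised and 2 lowered, and without the colon library 3 Fc receptors were raised.

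Immediate early genes, which many cells switch on within minutes of stimulation or handling, were also high. Jun stood at 5645 CPM in microglia against 1312 (CMs), 184 (KCs), 126 (AMs) and 623 (SMs), and 9 of 23 genes of the list were raised (Jun, Junb, Jund, Egr1, Ier2, Atf3, Btg2, Klf2 and Rhob) and none lowered, beside 10.4% and 5.17% of all genes, with a median log2 ratio of 2.08. The count was 6 with the mean over cells of CPM and 1 at a log2 ratio of at least 2. Fos (4542 CPM against 184 to 2379), Hspa1a (4859 CPM against 4.51 to 2476) and Dusp1 (1153 CPM against 136 to 1986) did not pass. Hspa1a and Hspa1b are near-identical copies whose reads may be split uncertainly. When 2 of the 5 clusters of microglia, the ones that held most of these UMIs, were left out of the microglia alone, a choice that removes these UMIs by construction, none of the 23 genes was raised, and Ccl4 and Il1a also lost their calls, while all 12 microglial markers kept theirs. With TMM factors 7 of the 23 were raised. The study's methods give Liberase for brain, lung and spleen and Collagenase A for liver, and refer to earlier work for colon. They add a Percoll gradient for the brain suspensions, which they do not give for liver, lung or spleen. The part of digestion and gradient in these levels was not tested.

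How microglia varied from cell to cell was measured as the coefficient of variation (CV) of a gene's level beyond counting noise, after each cell's depth had been taken into account. Cells of a library are not replicates, so these values describe the library. Over the 341 genes with at least 0.2 UMIs per cell in each of the 5 libraries thinned to 1500 UMIs, the median CV was 27.6% for microglia and 27.5% for AMs, against 31.2% for CMs, 32% for KCs and 34.8% for SMs. Microglia and AMs were thus the most even of the 5 over these shared genes. Genes with a CV of at least 100% numbered 73 of 971 in microglia (7.52%), near the share in CMs (8.88%) and above those in KCs (2.83%), AMs (2.33%) and SMs (3.92%).

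The marker genes varied somewhat more than the median gene. At full depth the median CV was 38.2% over the 12 markers, 34.5% over 401 raised genes and 27.1% over all 3007 genes with at least 0.2 UMIs per microglia. Cx3cr1 had a CV of 29.7%, Sparc 29.9%, Tmem119 33.6%, P2ry12 38.4% and Olfml3 38.9%. P2ry12 had 5, 18 and 36 UMIs at the 5th percentile of cells, the median and the 95th percentile and Tmem119 3, 10 and 21. In CMs, where these genes were at a low level, the CV was 52.3% for P2ry12, 100% for Tmem119, 160% for Sparc and 114% for Olfml3. Csf1r (19%) and C1qa (24.7%) were steadier in microglia. Adamts1, though raised, was uneven: its CV was 252%, and 78.4% of microglia had no UMI of it while the 95th percentile was 9 UMIs.

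The 20 genes with the largest CV, chosen for it, often had their UMIs in few cells, though the top 5% of microglia held only 38.1% of the UMIs of Gpr84 and 39.3% of those of Lyz2. Cxcl10, an interferon-induced chemokine, had the highest CV (1673%), with no UMI in 97% of microglia and up to 196 UMIs in a cell. The class II genes H2-Ab1 (1355%) and Cd74 (1154%) came next: 142 cells, the top 5% of microglia, held 83.9% of the H2-Ab1 and 80.5% of the Cd74 UMIs. Only 7 cells had 10 or more UMIs of H2-Ab1 and 25 cells 10 or more of Cd74. The same 2 genes were far more even in CMs (71.1% and 73.9%), KCs (80.1% and 70.3%) and SMs (114% and 96.5%), which express them broadly, and uneven in AMs (498% and 651%), which do not. Cytokines and chemokines made up a further set, with Il1b at 704%, Ccl12 at 474%, Tnf at 463%, Ccl2 at 368% and Osm at 360%. Il1b had no UMI in 91.1% of microglia, 10 or more in 43 cells, and a CV of 130% to 187% in the other 4 tissues. The remaining genes included ones induced by stress or growth signals (Gadd45b, Gadd45g, Rrad, Cdkn1a, Hspb1 and Otud1), together with Hes1, Gpr84, Lpl, Lyz2 and Apoe. Apoe, at a mean of 9.55 UMIs per cell, had no UMI in 19.1% of microglia and 10 or more in 547 cells, with a maximum of 1018. Its CV of 340% stood between 839% in AMs and 46.5% to 53.3% in CMs, KCs and SMs.

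**Figure D4:**
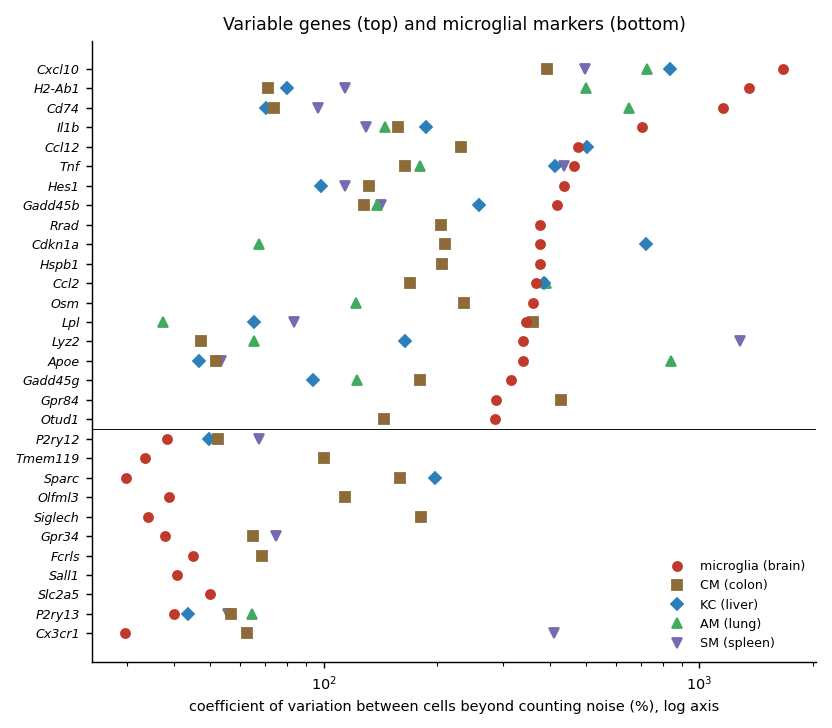
Coefficient of variation between cells beyond counting noise (percent, log axis) for 19 of the 20 most variable genes of microglia (above the line) and 11 microglial markers (below), in each of the 5 WT libraries. Points are left out where a library had under 0.05 UMIs of the gene per cell. The 11 markers lie between 29.7% and 49.9% in microglia and the 19 variable genes between 286% and 1673%.

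Summed over lists, the programmes of microglia ranged from steady to rare. At 1500 UMIs per cell, microglial markers took up a median of 3.8% of a cell's UMIs (5th to 95th percentile 2.13% to 5.47%), against 0.2% in CMs and at most 0.0667% in the other tissues, and every microglia passing the filter had 3 or more such UMIs. Cathepsins and lysosomal proteins took up 12.3% (7.73% to 17%) against 1.6% to 3% elsewhere, and Cst3, a secreted inhibitor, made 66835 of the 122301 CPM of this list in microglia. Immediate early genes spread over a wide range, with a median of 2.33% and percentiles of 0.4% and 9.53%. The 95th percentile was 4.27% in CMs, 3.93% in SMs, 1.87% in AMs and 0.8% in KCs, all below that of microglia. Inflammatory cytokines and chemokines had a median of 0.133% and a 95th percentile of 2.27%, and class II genes a median of 0.0667%, a 95th percentile of 0.267% and a maximum of 11.3%. Interferon genes reached 3 UMIs in 113 of 2830 microglia (3.99%, 3.3% to 4.78%), against 99.4% of KCs, 48.1% of CMs, 46.4% of SMs and 0.919% of AMs. Genes of the S phase reached 3 UMIs in 0.813% of microglia (0.516% to 1.22%) against 2.35% to 5.73% of CMs, KCs and AMs, and genes of G2 and mitosis in 0.353% (0.17% to 0.649%) against 1.22% to 3.59% of the other macs. Microglia had the lowest share for both lists, although for the S phase their interval overlapped that of SMs (1.03% to 2.05%).

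**Figure D5:**
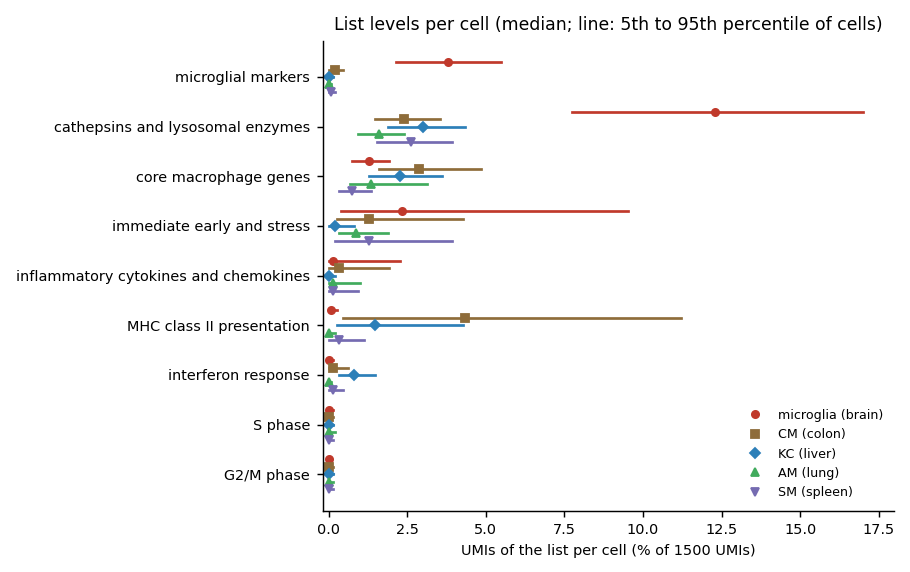
UMIs of 9 gene lists per cell, as percent of 1500 UMIs, in the 5 WT libraries (point: median of cells, line: 5th to 95th percentile). Microglia lie above every other library for the markers and the lysosomal list, and their immediate early genes reach the highest 95th percentile (9.53%).

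The lists moved together to differing degrees across the 2830 thinned microglia, as a description that rests on shared totals and shared depth. Cells with more immediate early UMIs had fewer marker UMIs (Pearson's r = -0.48) and fewer core mac UMIs (-0.42), all shares of 1 fixed total, and more cytokine UMIs (0.32). The immediate early level also went with the depth of the cell before thinning (0.22). Interferon and class II levels went with neither the markers (-0.05 and -0.11) nor each other (0.05).

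Clustering of the 2830 microglia gave 5 clusters, described here by list levels that the clustering itself used, so without a test. Cluster 0 (1224 cells, 43.3%) had the highest marker level (42486 CPM) and the lowest immediate early level (10009 CPM). Cluster 1 (731 cells, 25.8%) had 73784 CPM of immediate early genes and 30890 CPM of markers, and cluster 2 (677 cells, 23.9%) lay between them in both (36792 and 39156 CPM). The median depth was 3669 UMIs in cluster 0, 4830 in cluster 1, 4317 in cluster 2, 5464 in cluster 3 and 4307 in cluster 4, so cluster 3 was the deepest, and no doublet caller was run. P2ry12 stood at 5419, 3457 and 4700 CPM in clusters 0, 1 and 2. Cluster 3 (145 cells, 5.12%) carried class II genes at 4072 CPM, against 865 to 1210 CPM in the other clusters, and cytokines and chemokines at 16076 CPM, with Apoe at 11371 CPM, Cd74 at 1813 CPM and Lyz2 at 1337 CPM. Of all 2830 microglia only 7 had 10 or more UMIs of H2-Ab1 and 25 of Cd74, so few cells may make up much of this class II level. How many of them lie in cluster 3 was not counted. The list of disease-associated genes stood at 6040 CPM there against 1772 to 2283 CPM in the other clusters. Its marker level was the lowest of the 5 (28428 CPM) and its P2ry12 level 2069 CPM, and border-associated mac markers, at 4.64 to 20.2 CPM in the other clusters, reached 107 CPM there and monocyte markers 35.8 CPM, the latter at 40.3 CPM in cluster 4 and 3.56 to 7.95 CPM in clusters 0 to 2; the part of such cells in cluster 3 was not tested. Cluster 4 (53 cells, 1.87%) carried interferon genes at 5086 CPM against 275 to 479 CPM elsewhere, with Isg15 at 464 CPM and Ifit3 at 403 CPM, and a marker level of 37316 CPM. The haemoglobin UMIs lay mainly in cluster 2 (2293 CPM of erythroid genes, against 48.4 to 68 CPM in the others), but at 1500 UMIs 5 of all 2830 microglia had 3 or more of them and 8.87% had any, so most cells of the library had none. All 5 clusters had in common a marker level of at least 28428 CPM, while the same 12 genes summed to 1869 CPM in CMs and less in the other tissues.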

How the data were processed

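Single-cell 3′ RNA sequencing with 10x Genomics chemistry was analysed for the WT libraries. The authors deposited UMI counts per gene and barcode, 27998 genes, made with Cell Ranger on mm10 according to the submitters' processing notes. The study's methods give another version of Cell Ranger for KCs and AMs than for microglia, CMs and SMs. The members and gene lists were chosen with earlier results of these data known.

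Barcodes more than 3 scaled median absolute deviations from the library's median in log UMIs or log genes, or above it in mitochondrial share, were removed. No doublet caller was run. Cells were clustered with scanpy 1.11.5 and leidenalg 0.10.2 (2000 variable genes, 30 components, 15 neighbours, resolution 0.8), and clusters called another cell type by their markers were left out (22.8% of SMs, 0% of microglia). Counts were summed per library and scaled to CPM, and ratios were taken of CPM + 1. CV is the square root of the variance beyond Poisson noise, over genes of at least 0.2 UMIs per cell. The calculations were tested on simulated data. TMM factors came from edgeR 4.0.16. With 1 library per tissue no test was made. All 95% intervals and the limit of 3 counts for a gene at 0 cover counting error only. For named genes of at least 20 CPM in microglia the interval's width to either side was 4.14% of the level at the median and 8.23% at most, and wider for genes below that level.

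Named were the 25 genes with the largest ratio over the highest other tissue (at least 50 CPM, a UMI in at least 20% of microglia), the 10 raised genes of highest level, the 15 with the most negative ratio (at least 50 CPM in each other tissue), the 20 most variable, P2ry12, Tmem119, Sparc and Olfml3, and members of the lists. Genes of haemoglobin, immunoglobulins, ribosomes and mitochondria were not ranked, nor were X-inactivation and Y-linked genes, whereas other X-linked genes were. The list members named were picked with their values in view. A few genes that the rule names are not reported here. Alternatives changed the scaling, floor, pseudocount, threshold, cells, depth and tissues compared.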

Additional observations from a re-analysis of the deposited data

How the results depend on the processing

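The 579 raised and 188 lowered genes depended on the thresholds, the scaling and the tissues compared. With a floor of 50 CPM 384 were raised and 106 lowered, with a floor of 5 CPM 822 were raised and 360 lowered, and with a log2 ratio of at least 2 there were 176 and 66. Without colon 343 were lowered, and against colon and spleen only 385, as fewer libraries had to lie above microglia. These 2 gave 695 and 796 raised genes. The other alternatives gave 405 to 739 raised and 169 to 282 lowered genes, and TMM factors 405 and 278. In other tissues TMM factors, tried after seeing the data, gave 13 lowered genes in place of 24 in CMs, and 271 raised in place of 425 and 168 lowered in place of 83 in SMs. The median log2 ratio of all genes was -0.15 with TMM factors in place of 0.02. Of 912 values of 48 named genes under 19 alternatives 348 moved by more than the counting interval of the microglial level to either side. Of the 20 most variable genes, 9 were shared with a floor of 0.5 UMIs per cell and 8 after thinning to 1500 UMIs, where fewer genes pass the floor. Shares of cells with a UMI were 96.5% for P2ry12, 87.9% for Tmem119, 95.5% for Sparc and 86.7% for Olfml3 at 1000 UMIs, and 99.7%, 99.3%, 99.9% and 99.5% without thinning. Clusters numbered 10 at resolution 1.2 and 5 at 0.8. Alternatives without the immediate early clusters, with further clusters left out or with thinned cells were chosen after seeing the data. No paired analysis was possible because each group is 1 library and the labels carry no replicate numbers. Depth limits what can be said of genes near 0.243 CPM, the level of 3 UMIs in microglia.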
